A study of Mus musculus with 12 samples.

Results

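The interferon response and antigen presentation were followed in mouse liver through 35 genes, 25 interferon genes and 10 antigen presentation genes, of the 24062 genes counted. The genes were taken by symbol, and all 35 were present in the files. RNA sequencing had been done on 12 liver libraries in 4 groups, and the study addressed the part that LRH-1, the nuclear receptor encoded by Nr5a2, plays in hepatic lipid metabolism. The groups were high-fat diet (HFD) knockouts (n = 2), HFD controls (n = 4), standard diet (SD) knockouts (n = 3) and SD controls (n = 3). All mice were males aged 14 weeks on a mixed 129SvEV-C57BL/6 background, carried a floxed Nr5a2 allele and had been on their diet for 6 weeks. Knockouts are labelled Nr5a2 fl;AAV8-Cre, a floxed mouse given Cre recombinase by an adeno-associated virus. Controls are labelled Nr5a2 fl, and the series text states that control mice were infected with AAV8-eGFP. The promoter that drives Cre is not given in the sources used here. Each library has an identifier of its own, but no label states that the mice were different, so the p-values describe the spread among libraries, which may in part be technical.

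Interferons are cytokines released when cells sense viral nucleic acid or immune activation. Type I interferon signals through a complex that holds STAT2 and IRF9 to a DNA element called the ISRE, and type II interferon signals to a shorter element called GAS. The induced genes include antiviral effectors, the sensors and transcription factors that feed the response, and inhibitors such as USP18 that end it. Interferon also raises the machinery of class I antigen presentation. In that pathway the immunoproteasome cuts cytosolic proteins, the TAP transporter moves the peptides into the endoplasmic reticulum, and tapasin loads them on class I heavy chains paired with beta-2 microglobulin. In liver, hepatocytes and the resident macrophages, the Kupffer cells, both respond to interferon.

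Total counts were 7463792 to 10875478 in HFD libraries and 2371167 to 3404570 in SD libraries. The share of counts on Rn45s, the ribosomal RNA precursor, was 0.985% to 1.32% in HFD libraries and 0.291% to 0.460% in SD libraries. Ribosomal protein genes took 0.683% to 0.807% of counts in HFD libraries and 0.137% to 0.183% in SD libraries. Diet, depth and these shares therefore cannot be told apart in any comparison of HFD with SD. The targeted gene itself was not lower in knockouts. Nr5a2 had 69.1 and 84.5 CPM (counts scaled to the normalized library size) in HFD knockouts, against 77.0, 74.5, 64.3 and 66.8 CPM in HFD controls, and 95.3, 100.1 and 94.7 CPM in SD knockouts, against 84.4, 74.8 and 85.8 CPM in SD controls. A count over the whole gene does not show the loss of single exons, and the sources used here do not name the floxed exons. Nr0b2, an established LRH-1 target, had raw counts of 0 and 3 in HFD knockouts against 69, 107, 108 and 58 in HFD controls, and 0, 0 and 0 in SD knockouts against 27, 38 and 42 in SD controls, so this gene separated every library by its label. The 6 hepatocyte markers listed, Alb among them, were abundant in all libraries, with summed levels of 1.22e+05 to 1.69e+05 CPM in HFD knockouts, 1.03e+05 to 1.08e+05 CPM in HFD controls, 1.00e+05 to 1.52e+05 CPM in SD knockouts and 1.06e+05 to 1.35e+05 CPM in SD controls.

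Levels of the 35 genes spanned a wide range when scaled to exon length. B2m, the invariant light chain of class I molecules, stood highest with a mean over the 4 groups of 6171 CPM per kilobase. It was followed by the class I heavy chain genes H2-K1 at 519, H2-D1 at 126 and H2-T23 at 41.7 CPM per kilobase. The interferon genes were far lower. The highest were the GTPase gene Igtp at 16.2 and the RNA sensor gene Ifih1 at 15.3 CPM per kilobase, and the lowest were Oas1a, which makes an activator of RNase L, at 0.82, and the antiviral GTPase gene Mx1, at 0.49 CPM per kilobase. All 35 genes passed the filter on low counts. Isg15, a ubiquitin-like modifier, and Oas1a passed it through HFD libraries alone: Isg15 had 10 counts over the 3 SD knockouts and 8 over the 3 SD controls, and Oas1a had 11 and 5. H2-K1, H2-D1 and H2-T23 are closely related class I genes, and the Oas, Ifit, Gbp and Mx genes are also families. The sources used here do not say how reads shared between copies were counted, and single members of these families are uncertain.

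**Figure D1:**
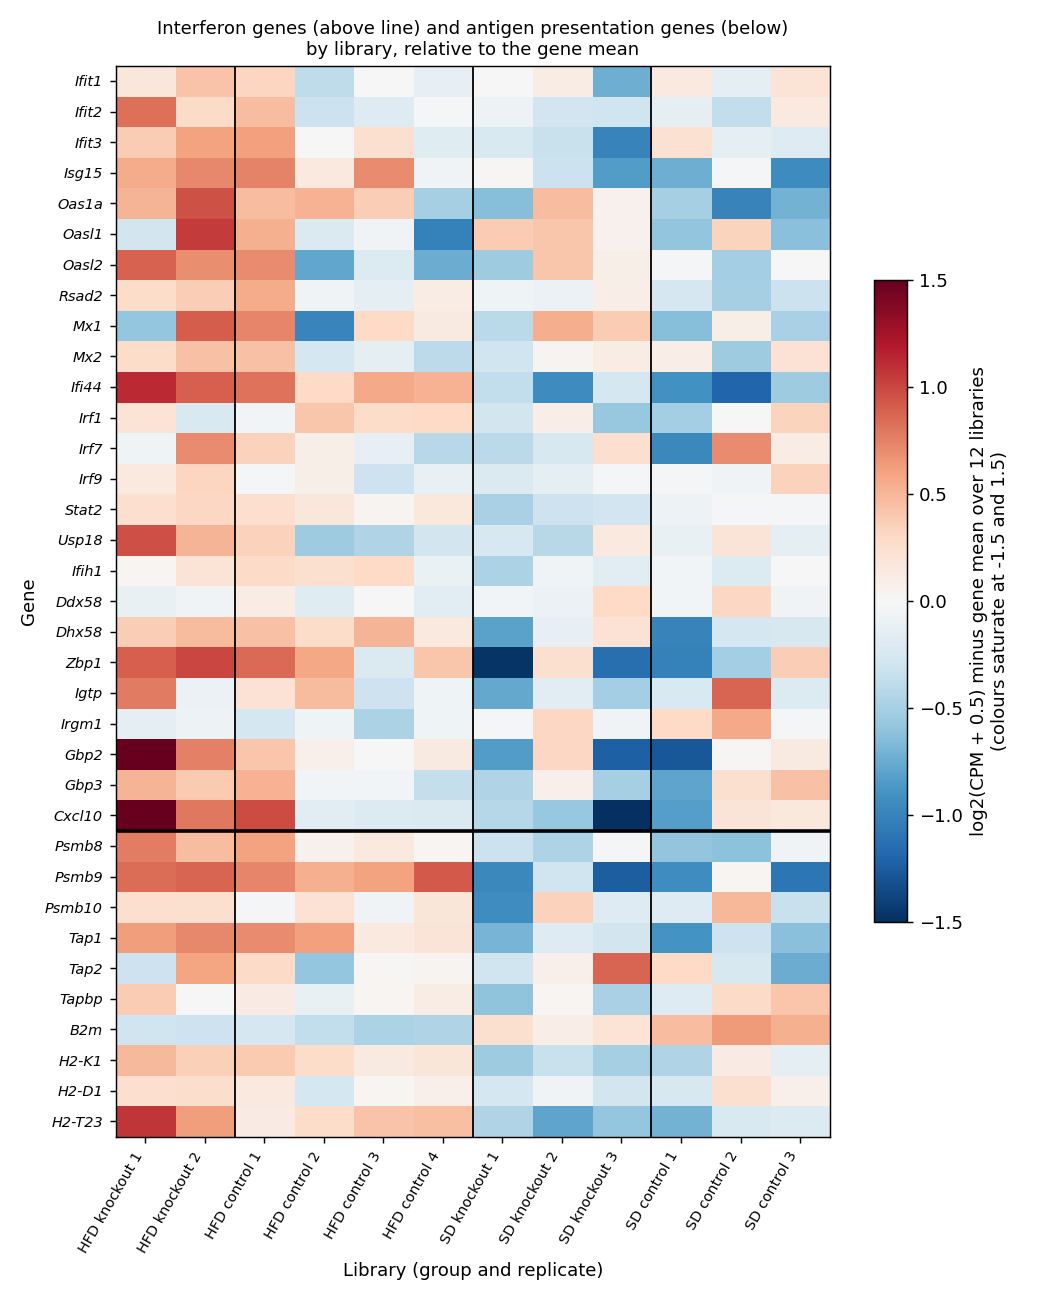
Level of each of the 35 genes in each of the 12 libraries, as log2(CPM + 0.5) minus the gene's own mean over libraries; columns are libraries by group and rows are genes by role. HFD knockouts and HFD control 1 are above the gene's mean for most genes, Cxcl10 and Gbp2 are highest in HFD knockout 1, and B2m is above its mean in all 6 SD libraries.

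The promoters of 29 of the 35 genes were available as 34 windows of 250 bases before and 50 after an annotated start, from RefSeq on GRCm38.p6. The ISRE was searched on both strands as GAAA, any 2 bases and GAAA again, which reads TTTC, any 2 bases and TTTC on the other strand. It was present in 13 of 24 windows of interferon genes (54.2%), in 2 of 10 windows of antigen presentation genes (20%) and in 3.44% of all 32851 windows. GAS, searched as TTCNNNGAA, which reads the same on both strands, was present in 4 of 24 windows (16.7%), 1 of 10 windows (10%) and 8.3% of all windows. These are matches of letters, not measured binding. The 250 bases before the start are shown for 5 genes whose values carry the comparisons: the chemokine gene Cxcl10 and the GTPase gene Gbp2, which were high in HFD knockouts, H2-T23 and B2m, the antigen presentation genes with an ISRE match, and Tap1, which has none. Capitals mark the ISRE match.
Cxcl10, chr5:92348890-92349139, minus strand: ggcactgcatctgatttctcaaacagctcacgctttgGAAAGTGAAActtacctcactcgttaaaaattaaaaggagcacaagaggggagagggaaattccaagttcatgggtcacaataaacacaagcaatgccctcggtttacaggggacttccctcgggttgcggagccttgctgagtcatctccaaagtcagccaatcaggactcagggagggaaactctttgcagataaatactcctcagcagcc
Gbp2, chr3:142620413-142620662, plus strand: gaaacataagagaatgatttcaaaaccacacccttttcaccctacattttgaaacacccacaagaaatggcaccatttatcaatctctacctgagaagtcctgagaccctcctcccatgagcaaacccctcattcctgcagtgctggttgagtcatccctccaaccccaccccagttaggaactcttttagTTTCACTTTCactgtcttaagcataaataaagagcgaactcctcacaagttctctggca
H2-T23, chr17:36032702-36032951, minus strand: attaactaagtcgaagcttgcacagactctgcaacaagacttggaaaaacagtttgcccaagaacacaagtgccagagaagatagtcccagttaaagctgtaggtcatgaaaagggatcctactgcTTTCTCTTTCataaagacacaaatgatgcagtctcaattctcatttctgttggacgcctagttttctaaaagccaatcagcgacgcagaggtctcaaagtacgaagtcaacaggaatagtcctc
B2m, chr2:122147437-122147686, plus strand: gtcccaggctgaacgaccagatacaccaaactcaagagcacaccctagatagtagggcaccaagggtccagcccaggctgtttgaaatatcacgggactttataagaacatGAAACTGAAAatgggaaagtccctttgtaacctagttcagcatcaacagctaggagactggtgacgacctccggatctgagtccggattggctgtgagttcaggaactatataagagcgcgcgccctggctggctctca
Tap1, chr17:34187306-34187555, plus strand: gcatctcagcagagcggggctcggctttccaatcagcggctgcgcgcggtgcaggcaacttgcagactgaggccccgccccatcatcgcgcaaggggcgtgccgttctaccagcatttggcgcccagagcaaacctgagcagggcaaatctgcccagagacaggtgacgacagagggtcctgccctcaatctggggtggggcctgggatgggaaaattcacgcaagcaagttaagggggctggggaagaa
The match begins at -213 from the start in Cxcl10, at -59 in Gbp2, at -124 in H2-T23 and at -139 in B2m. The Tap1 window overlaps that of Psmb9, which lies on the opposite strand, so the 2 genes start head to head. Among the other interferon genes, Ifit1, Ifit3, Isg15, Oas1a, Rsad2, Stat2, Ifih1, Ddx58, Igtp, Irgm1 and Gbp3 held a match. Usp18, Mx1, Mx2, Dhx58, Zbp1 and Tap2 had no window.

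The HFD controls were not alike. HFD control 1 was the highest of the 4 HFD controls for 18 of the 25 interferon genes, against 25.3% of all genes tested. Its median difference from the mean of the other HFD controls was 0.49 on the log2 scale (1.40-fold) for interferon genes and 0.18 for the antigen presentation genes, of which it was highest for 7 of 10, while the median over all genes was -0.02. The same library was highest for 10 of 11 Kupffer cell and macrophage markers, with a median difference of 0.82 (1.76-fold), and HFD control 2 was lowest for all 11, at -0.91. Summed over the list, these markers stood at 364 and 334 CPM in HFD knockouts, against 475, 197, 343 and 274 CPM in HFD controls. The part of the macrophage markers in the interferon values was not tested. In bulk liver, more cells of a type and more RNA per cell cannot be told apart. Between HFD knockouts and HFD controls, counts of interferon and antigen presentation genes that passed are given with and without HFD control 1. So are counts of estimates above 0 and medians. Counts at an unadjusted p and counts of groups that did not overlap are given only with that library included. Other gene lists in that comparison are also given only with HFD control 1 included.

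**Figure D2:**
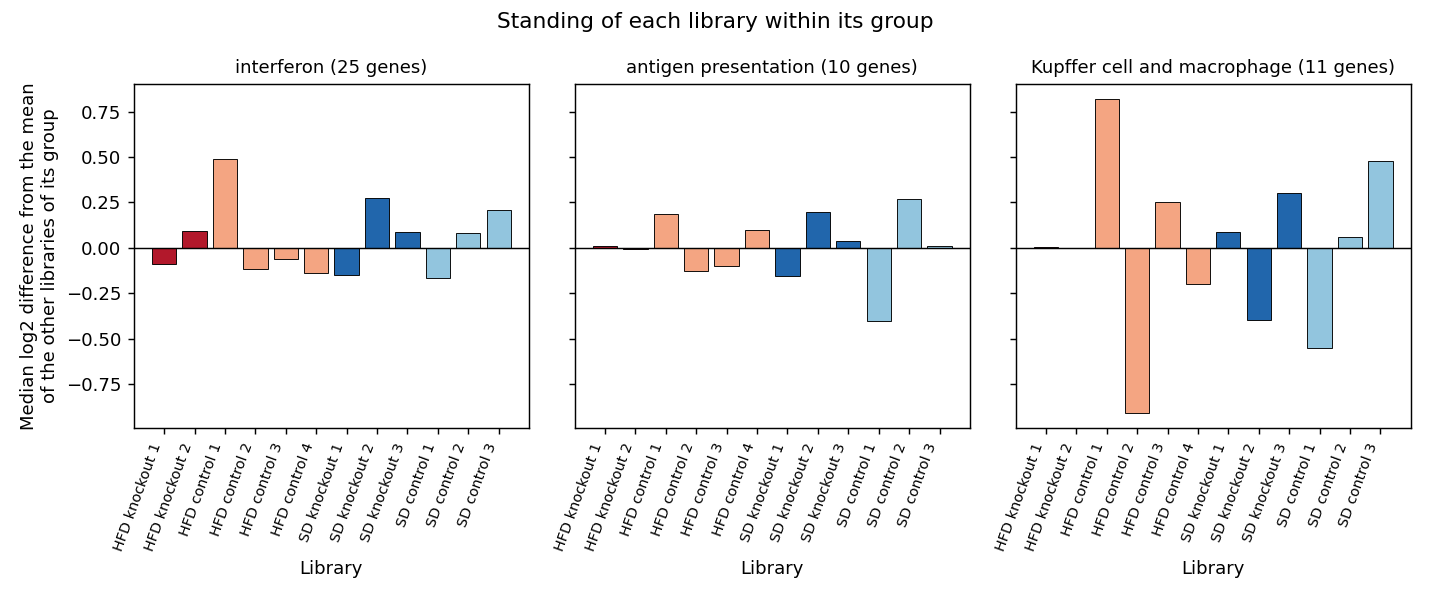
Median log2 difference of each library from the mean of the other libraries of its group, for the interferon genes, the antigen presentation genes and the Kupffer cell and macrophage markers. HFD control 1 stands at 0.49 for interferon genes and 0.82 for macrophage markers, and HFD control 2 at -0.91 for macrophage markers.

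In HFD livers 1 of the 25 interferon genes, Usp18, passed the test as higher in knockouts than in controls. Of the 25 genes, 1 rose, none fell and 24 did not pass, where 2.70% of all 12015 genes tested passed in either direction, 1.04% as higher and 1.66% as lower (edgeR's quasi-likelihood test with Benjamini-Hochberg adjustment over all genes, adjusted p under 0.05). The estimate was above 0 for 22 of 25 genes, against 48.8% of all genes, with a median log2 fold change of 0.33 against a median of -0.01 over all genes. At an unadjusted p under 0.05, 7 interferon genes were higher and none was lower, where 14.0% of all genes reached that p in either direction. The knockout and control libraries did not overlap for 5 genes, all higher in knockouts (Gbp2, Ifi44, Irf9, Usp18 and Zbp1), where 10.3% of all genes did so in that direction.

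Usp18, the protease that removes ISG15 from proteins and blocks the type I interferon receptor, had 23.6 and 17.2 CPM in HFD knockouts, against 15.2, 8.07, 8.58 and 9.75 CPM in HFD controls. Both knockout libraries lay above all controls, and the nearest control was HFD control 1. The log2 fold change was 0.95 ± 0.23 (SE; 1.93-fold; edgeR adjusted p = 0.0369). Over 13 alternatives the adjusted p ran from 0.00163 to 0.441, and the call held in 5 of them. It was lost without HFD control 2 (adjusted p = 0.104 in edgeR), 3 (0.0978) or 4 (0.102) and without HFD knockout 1 (0.441) or 2 (0.0524), so leaving out any of those 5 libraries ended the call. The other 4 transcription factor and feedback genes did not pass. Irf9, the DNA-binding partner of STAT2, had 25.6 and 29.0 CPM in HFD knockouts, against 22.8, 24.6, 18.4 and 21.3 CPM in HFD controls. Stat2 had 71.1 and 74.0 CPM in HFD knockouts, against 71.2, 67.0, 61.1 and 66.7 CPM in HFD controls. Irf1 ran the other way, at 16.4 and 12.1 CPM in HFD knockouts and 13.7, 19.1, 17.3 and 17.5 CPM in HFD controls, with overlap. Irf7, which amplifies interferon production, overlapped as well, with means of 10.7 ± 4.12 CPM in HFD knockouts (SD, n = 2) and 8.14 ± 1.89 CPM in HFD controls (SD, n = 4).

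Cxcl10, a chemokine that draws activated T cells, had 28.8 and 13.1 CPM in HFD knockouts, against 14.9, 6.46, 6.30 and 6.24 CPM in HFD controls. The groups overlapped through 1 library, HFD control 1, whose value exceeded that of HFD knockout 2. Its log2 fold change of 1.27 ± 0.36 (SE; 2.40-fold) did not pass in edgeR (adjusted p = 0.0861). Gbp2, an interferon-induced GTPase that acts on pathogen vacuoles, had 18.9 and 11.0 CPM in HFD knockouts, against 8.62, 6.70, 6.41 and 7.02 CPM in HFD controls. Those groups did not overlap, and the log2 fold change was 1.04 ± 0.31 (SE; 2.06-fold; edgeR adjusted p = 0.0968). The other GTPase genes overlapped. Gbp3 averaged 17.3 ± 1.09 CPM in HFD knockouts and 13.0 ± 3.62 CPM in HFD controls, and Igtp 40.5 ± 17.0 CPM in HFD knockouts and 32.9 ± 7.92 CPM in HFD controls (SD, n = 2 and n = 4). Irgm1, an immunity-related GTPase of the autophagy pathway, averaged 30.8 ± 0.852 CPM in HFD knockouts and 28.7 ± 3.86 CPM in HFD controls.

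None of the 11 antiviral effector genes passed in HFD livers. Oasl2, an OAS-like protein, had 24.04 and 21.1 CPM in HFD knockouts, against 21.2, 7.20, 11.0 and 7.41 CPM in HFD controls (log2 fold change 0.92, edgeR adjusted p = 0.192). Ifi44 had 31.8 and 27.2 CPM in HFD knockouts, against 25.6, 17.8, 21.6 and 20.9 CPM in HFD controls. Ifit2, which binds viral RNA, had 13.5 and 9.15 CPM in HFD knockouts, against 10.4, 5.83, 6.41 and 7.28 CPM in HFD controls. Ifi44 separated the groups, and for Oasl2 and Ifit2 HFD control 1 lay between both knockouts. The rest of the effectors had log2 fold changes from 0.17 for Rsad2, the antiviral enzyme viperin, to 0.66 for Oasl1, a translational brake on Irf7. Among the 4 nucleic acid sensors the estimates were near 0 for Ifih1 (MDA5), Ddx58 (RIG-I) and Dhx58 (LGP2), at -0.07, -0.03 and 0.08. Zbp1, a sensor of left-handed nucleic acid, had 7.23 and 7.81 CPM in HFD knockouts, against 6.99, 5.71, 3.09 and 5.07 CPM in HFD controls, and its log2 fold change of 0.52 did not pass.

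The count depended on HFD control 1. Without it, 4 interferon genes passed as higher in HFD knockouts (Cxcl10, Ifit2, Oasl2 and Usp18), while the share of all genes that passed was 5.46%, against 2.70% with it. The estimate was then above 0 for 20 of 25, and the median log2 fold change was 0.53. The Cxcl10 log2 fold change was then 1.72 (edgeR adjusted p = 0.00463) and that of Usp18 1.22 (0.00163). Without HFD knockout 2, whose Cxcl10 level was the lower one, Cxcl10 alone passed (1.74, 0.0413) and 1.77% of all genes did. Without HFD knockout 1 none passed, the Cxcl10 estimate was 0.60 (0.777), and 0.743% of all genes passed. HFD knockout 1 held the higher Cxcl10 and Gbp2 levels of the pair.

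**Figure D3:**
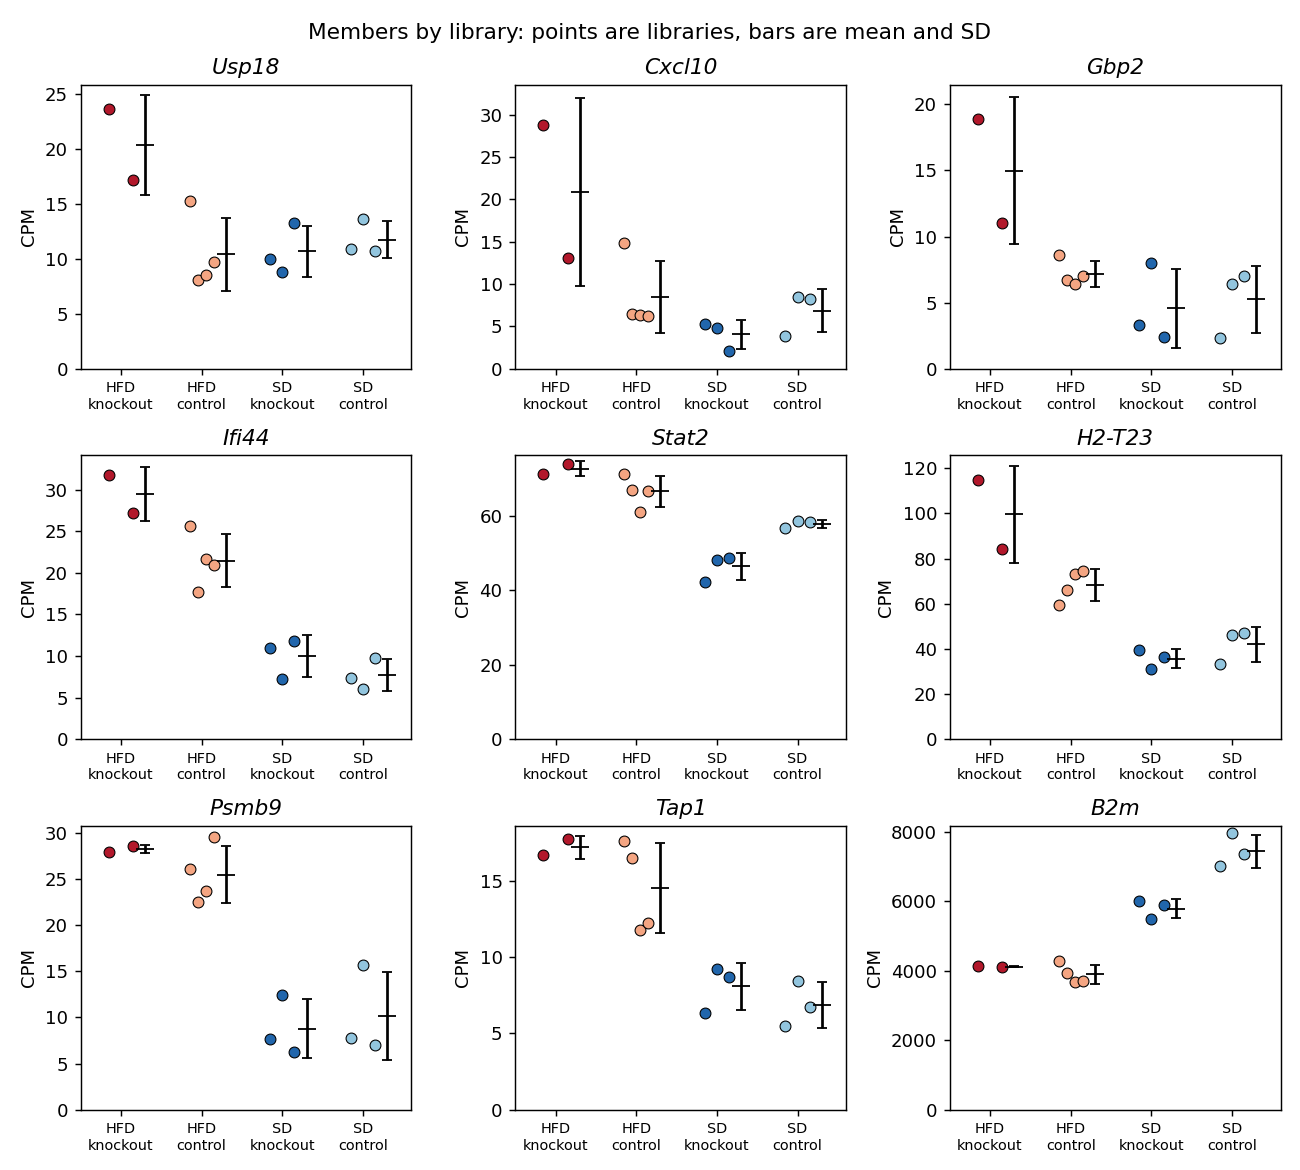
CPM of 9 genes in each library by group; points are libraries, and the bar beside each group gives its mean and SD. Usp18 and Gbp2 are higher in both HFD knockouts than in every HFD control, HFD control 1 lies at 14.9 CPM for Cxcl10 between both HFD knockouts, and B2m is lower in all HFD libraries than in all SD libraries.

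Antigen presentation genes in HFD livers showed small differences, and none of the 10 passed in edgeR, where 2.70% of all genes did. The estimate was above 0 for 10 of 10, with a median log2 fold change of 0.21 against -0.01 over all genes. At an unadjusted p under 0.05 only H2-T23 was higher, where 14.0% of all genes reached that p in either direction. H2-T23, the mouse gene for the nonclassical class I molecule Qa-1, had 115 and 84.5 CPM in HFD knockouts, against 59.3, 66.0, 73.1 and 74.5 CPM in HFD controls. The groups did not overlap, and HFD control 1 was the lowest control here. Its log2 fold change was 0.55 ± 0.15 (SE; 1.46-fold; edgeR adjusted p = 0.0699), and DESeq2 passed it (adjusted p = 0.0448). Without HFD knockout 2 it passed in edgeR (0.0402), and without HFD knockout 1 the estimate was 0.32 (0.642). H2-D1 had 309 and 312 CPM in HFD knockouts, against 288, 216, 264 and 273 CPM in HFD controls, a log2 fold change of 0.25 ± 0.14 that did not pass (edgeR adjusted p = 0.444). Psmb8, a catalytic immunoproteasome subunit, had 26.8 and 21.8 CPM in HFD knockouts, against 23.96, 16.3, 17.3 and 16.0 CPM in HFD controls (0.39 ± 0.19, edgeR adjusted p = 0.375). Psmb10 also separated the groups, by a small margin, at 13.5 and 13.4 CPM in HFD knockouts against a highest HFD control of 13.2 CPM. B2m, H2-K1, Psmb9, Tap1, Tap2 and Tapbp overlapped, with log2 fold changes of 0.08 to 0.27. Without HFD control 1 none of the 10 passed either, where 5.46% of all genes did. All 10 estimates were then above 0, with a median log2 fold change of 0.27.

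Beyond these genes, none of 43 other interferon-stimulated genes tested passed in HFD livers, although the estimate was above 0 for 35 of them. Over all genes, 1.04% passed as higher and 1.66% as lower, and 48.8% had an estimate above 0. Of 18 other class I pathway genes 1 passed, and it fell: Cd1d1, which presents lipid antigens, had 96.4 and 72.2 CPM in HFD knockouts, against 121, 180, 133 and 172 CPM in HFD controls (log2 fold change -0.84, edgeR adjusted p = 0.0138). The Cd1d1 call was lost without HFD knockout 2 (edgeR adjusted p = 0.154) and when only the 2 HFD groups were fitted (0.0749). In the same list Nlrc5, the transactivator of class I genes, had a log2 fold change of 0.48 (edgeR adjusted p = 0.135) and is named for its role, with its value known. None of 8 class II genes passed, and all 8 had estimates above 0, with a median log2 fold change of 0.77. Class II genes summed to 314 and 174 CPM in HFD knockouts and 206, 108, 167 and 112 CPM in HFD controls. Markers of T and NK cells summed to 13.9 and 15.3 CPM in HFD knockouts and 17.2, 6.33, 9.39 and 5.85 CPM in HFD controls, with HFD control 1 again the highest. Of the 11 found in the files, only Cd3e and Cd4 passed the filter on low counts. Neither passed the test. Cd3e averaged 2.33 CPM in HFD knockouts and 1.33 CPM in HFD controls, and Cd4 5.68 and 3.52 CPM. On SD, Cd4 averaged 5.79 CPM in knockouts and 1.30 CPM in controls, and it did not pass there either. Under the filter, Cd3d, Cd3g, Cd8b1 and Klrb1c averaged lower in HFD knockouts than in HFD controls, and Cd8a, Nkg7, Ncr1, Gzma and Gzmb higher. The 4 neutrophil markers found in the files summed to 2.92 and 6.92 CPM in HFD knockouts and averaged 4.18 ± 0.799 CPM in HFD controls (SD, n = 4), with the groups overlapping; of these Mpo was at 0 in 11 of the 12 libraries, S100a8 and S100a9 in 2 each, and Csf3r in none. The part of these cell types in the results was not tested.

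On the standard diet no interferon gene passed between knockouts and controls, where 4.38% of all genes did, 1.44% as higher and 2.94% as lower. The estimate was above 0 for 8 of 25, and the median log2 fold change was -0.14 against 0 over all genes. At an unadjusted p under 0.05 only Stat2 was lower, where 17.6% of all genes reached that p in either direction, and DESeq2 passed none. Stat2 had 42.3, 48.0 and 48.8 CPM in SD knockouts, against 56.6, 58.7 and 58.3 CPM in SD controls. The groups did not overlap, and the controls lay close together, but the log2 fold change of -0.32 ± 0.11 (SE) did not pass (edgeR adjusted p = 0.114). Ifit3 also separated the groups, at 8.67, 8.01 and 4.88 CPM in SD knockouts and 12.1, 9.24 and 8.85 CPM in SD controls (-0.48 ± 0.30, edgeR adjusted p = 0.449). Rsad2 separated them in the other direction, at 14.3, 14.0 and 16.0 CPM in SD knockouts and 12.5, 10.4 and 11.9 CPM in SD controls. These 3 of 25 genes compare with 22.6% of all genes whose groups did not overlap. Igtp had 17.7, 27.2 and 21.2 CPM in SD knockouts, against 25.8, 55.9 and 26.2 CPM in SD controls (-0.70 ± 0.33, edgeR adjusted p = 0.288), and its highest value belonged to SD control 2.

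Usp18, Cxcl10 and Gbp2, the interferon genes with the smallest p in HFD livers, overlapped between groups on the standard diet. Usp18 had 9.999, 8.81 and 13.2 CPM in SD knockouts, against 10.9, 13.7 and 10.7 CPM in SD controls. Cxcl10 had 5.33, 4.80 and 2.09 CPM in SD knockouts, against 3.91, 8.44 and 8.24 CPM in SD controls. Gbp2 had 3.33, 8.01 and 2.44 CPM in SD knockouts, against 2.34, 6.43 and 7.02 CPM in SD controls. The levels rest on few reads: Gbp2 had 37 counts over the SD knockouts and 45 over the SD controls, and Cxcl10 had 34 and 58.

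No antigen presentation gene passed on the standard diet in edgeR, where 4.38% of all genes did. Of the 10 genes, 7 had estimates below 0, with a median log2 fold change of -0.23. At an unadjusted p under 0.05, B2m, Tapbp and H2-K1 were lower, against the same 17.6% of all genes in either direction. B2m had 5993, 5476 and 5881 CPM in SD knockouts, against 7006, 7944 and 7353 CPM in SD controls. Every knockout lay below every control, and the log2 fold change was -0.36 ± 0.11 (SE; 1.29-fold lower; edgeR adjusted p = 0.0756), while DESeq2 passed it as lower. Tapbp, the gene for tapasin, had 18.7, 29.2 and 20.2 CPM in SD knockouts, against 24.99, 34.97 and 38.5 CPM in SD controls (-0.55 ± 0.20, edgeR adjusted p = 0.150). H2-K1 had 568, 652 and 584 CPM in SD knockouts, against 603, 897 and 753 CPM in SD controls (-0.32 ± 0.13, edgeR adjusted p = 0.220). Both overlapped through 1 knockout, SD knockout 2, and 1 control, SD control 1. SD control 1 was also the lowest SD control for all 11 macrophage markers and for 6 of the 10 antigen presentation genes.

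Other genes of the class I pathway did pass on the standard diet. Of 18 tested, 2 fell and none rose, where 2.94% of all genes passed as lower and 1.44% as higher. The same shares apply to the other lists given below. H2-Q10, a secreted class I molecule made by mouse liver, had 382, 439 and 423 CPM in SD knockouts, against 635, 749 and 801 CPM in SD controls (log2 fold change -0.81, edgeR adjusted p = 0.00129). Cd1d1 had 64.3, 55.6 and 52.2 CPM in SD knockouts, against 137, 120 and 114 CPM in SD controls (-1.10, 0.00148). H2-Q10 is close in sequence to the class I members above, so its reads may be shared with them. Of 43 other interferon-stimulated genes 1 rose: Ifi27, an interferon-induced mitochondrial protein, had 69.3, 64.4 and 87.1 CPM in SD knockouts, against 34.0, 47.4 and 38.1 CPM in SD controls (0.89, edgeR adjusted p = 0.00835). Its call was lost without SD knockout 3 (0.0541) or SD control 3 (0.0542). None of 22 receptor and signalling genes and none of 8 class II genes passed.

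**Figure D4:**
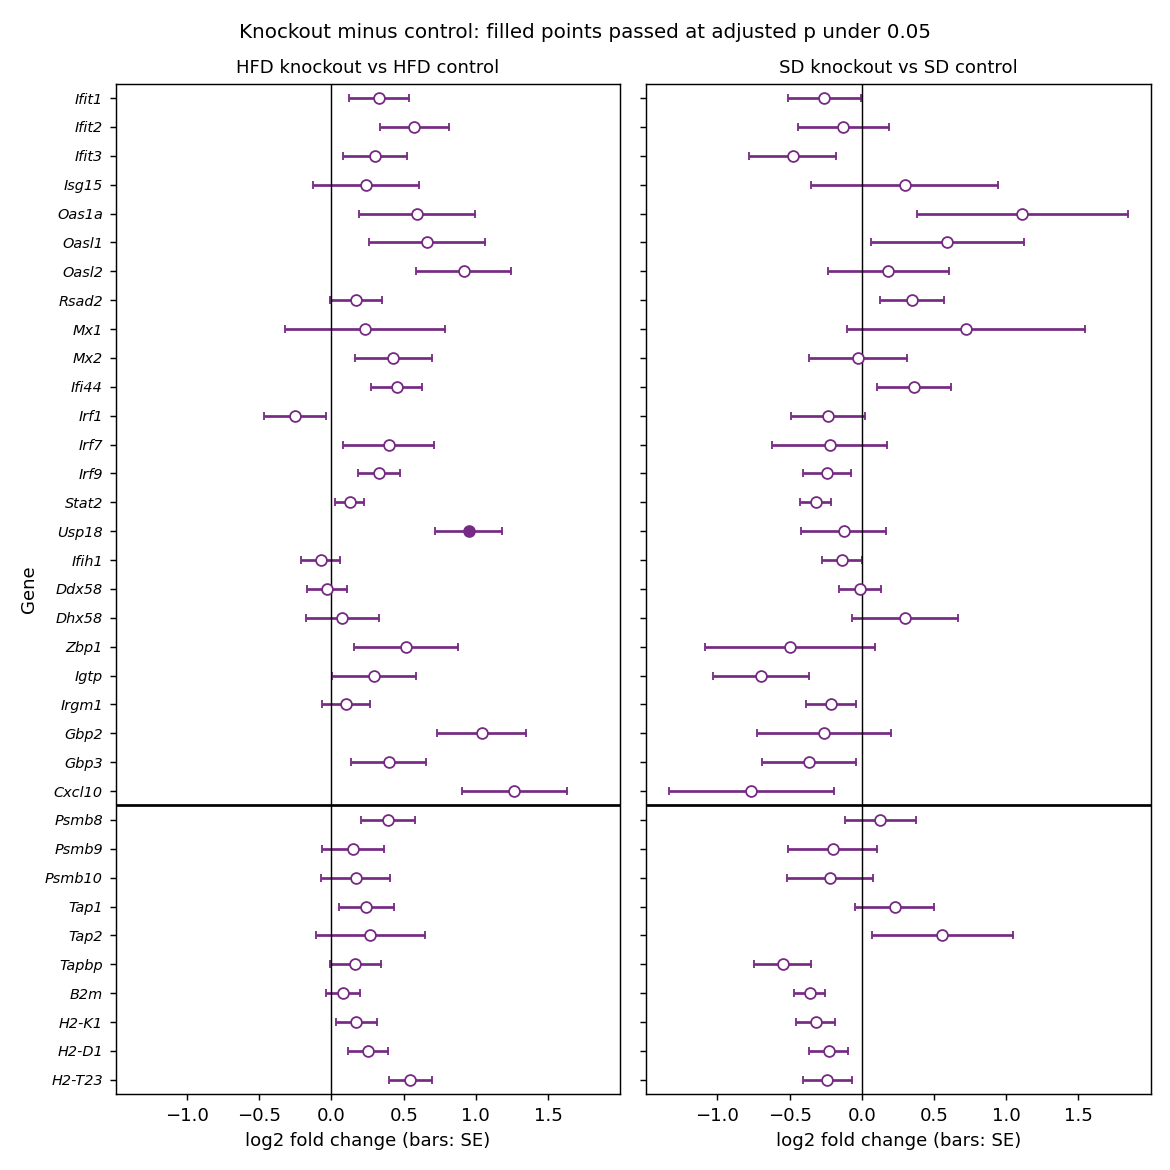
Log2 fold change of knockouts over controls for each of the 35 genes, on HFD at left and on SD at right; bars are the SE and filled points passed at an adjusted p under 0.05. Usp18 on HFD is the one filled point; 22 interferon estimates lie above 0 on HFD and 8 on SD.

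Averaged over both diets, no interferon gene and no antigen presentation gene passed between knockouts and controls, where 8.36% of all genes did, 3.00% as higher and 5.36% as lower. At an unadjusted p under 0.05, Ifi44 and Usp18 were higher, where 21.5% of all genes reached that p in either direction, and DESeq2 passed none of the 35. Without HFD control 1, Oasl2 and Usp18 passed, and the share of all genes that passed was 11.1%, against 8.36% with it. Among related genes Cd1d1 (log2 fold change -0.97, edgeR adjusted p = 0.00011) and H2-Q10 (-0.50, 0.00252) were lower in knockouts over both diets. So were the proteasome subunit genes Psma1 (-0.41, 0.0209) and Psmb7 (-0.35, 0.0141), neither of which is among the 35. Ifi27 (0.65, 0.00257) and Ly6e (0.62, 0.0309) were higher, and Trim25 (-0.34, 0.0459), which activates RIG-I, and Mavs (-0.31, 0.0309), the adaptor of the RNA sensors, were lower. The Trim25, Mavs, Ly6e and Psma1 calls were lost when single libraries were left out, and that of Psmb7 without HFD knockout 2 (edgeR adjusted p = 0.0579). With the replicate number as a block the Mavs (0.0759) and Psma1 (0.0506) calls were also lost. With plain library size those of Mavs (0.0783) and Trim25 were lost, and that of Trim25 also with counts thinned to the smallest library.

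The knockout effect was next compared between diets directly, as the effect in HFD minus the effect in SD. No gene of the 12015 tested passed in edgeR, so 0% of all genes did, and none of the 35 passed in DESeq2, which called 30 genes in all. The estimate was above 0 for 18 of 25 interferon genes, with a median of 0.45, and for 9 of 10 antigen presentation genes, with a median of 0.42, against -0.01 over all genes. At an unadjusted p under 0.05, 6 interferon genes and 5 antigen presentation genes were above 0, where 7.58% of all genes reached that p in either direction. The smallest p among interferon genes belonged to Stat2 (0.45 ± 0.15, edgeR adjusted p = 0.514), Cxcl10 (2.03 ± 0.68, 0.524) and Usp18 (1.07 ± 0.37, 0.544). Among antigen presentation genes it belonged to H2-T23 (0.78 ± 0.23, 0.445), B2m (0.44 ± 0.16, 0.558) and Tapbp (0.71 ± 0.27, 0.568). That the knockout effect on these genes differs between the diets was therefore not shown. Without HFD control 1 no member passed either, and the medians were 0.72 and 0.46.

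Between diets, larger differences were present, within the limit that depth and the ribosomal shares go with diet. In knockouts 8 of 25 interferon genes were higher on HFD and none was lower, where 26.6% of all genes passed in either direction, 14.9% as higher. The median log2 fold change was 0.67 against 0.03 over all genes. That median includes Isg15 and Oas1a, which passed the filter on low counts through HFD libraries alone and did not pass this test. The genes that rose were Cxcl10, Gbp2, Ifi44, Ifit2, Ifit3, Stat2, Usp18 and Zbp1. Cxcl10 had the largest estimate, 2.35 ± 0.50 (SE; 5.08-fold; edgeR adjusted p = 0.0026), from 28.8 and 13.1 CPM in HFD knockouts against 5.33, 4.80 and 2.09 CPM in SD knockouts. Zbp1 had 7.23 and 7.81 CPM in HFD knockouts, against 1.00, 4.40 and 1.39 CPM in SD knockouts (1.78 ± 0.50, edgeR adjusted p = 0.0159), and Gbp2 stood 3.32-fold higher (1.73 ± 0.40, 0.00496). The Zbp1 levels in SD knockouts rest on 3, 11 and 4 counts. Ifi44 had 31.8 and 27.2 CPM in HFD knockouts, against 11.0, 7.20 and 11.8 CPM in SD knockouts (1.54 ± 0.22, 9.09e-05). Stat2 had 71.1 and 74.0 CPM in HFD knockouts, against 42.3, 48.0 and 48.8 CPM in SD knockouts (0.65 ± 0.11, 0.000517). Ifit3 was 2.05-fold higher (1.03 ± 0.28, 0.013). Cxcl10, Ifi44 and Stat2 passed whichever library was left out, and each of the other 5 calls was lost without at least 1 library. The count was 5 without SD knockout 1, where 20.5% of all genes passed, and 5 without SD knockout 3, where 20.3% did. Without HFD knockout 1 only 1 HFD knockout was left, and the median log2 fold change was 0.71.

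In controls 3 interferon genes passed between diets, 2 higher and 1 lower on HFD, where 30.1% of all genes passed in either direction. Ifi44 had 25.6, 17.8, 21.6 and 20.9 CPM in HFD controls, against 7.42, 6.03 and 9.77 CPM in SD controls (1.45 ± 0.21, edgeR adjusted p = 8.07e-05). Dhx58 had 6.17, 5.46, 6.52 and 4.94 CPM in HFD controls, against 1.95, 3.62 and 3.66 CPM in SD controls (0.89 ± 0.30, 0.0343). The Dhx58 levels in SD controls rest on 5, 9 and 12 counts. Irgm1 was lower, at 27.5, 31.8, 23.8 and 31.8 CPM in HFD controls against 41.0, 49.4 and 32.7 CPM in SD controls (-0.51 ± 0.15, 0.0196). The Ifi44, Dhx58 and Irgm1 groups did not overlap. In all 4 interferon genes did so as higher and 1 as lower, against 20.5% and 16.7% of all genes. At an unadjusted p under 0.05, 6 interferon genes were higher and 1 was lower, where 40.6% of all genes reached that p in either direction. Of the antigen presentation genes, given below, 5 were higher and 1 was lower at that p. The median log2 fold change over the 25 genes was 0.21 against 0.02 over all genes. The 25 genes include Isg15 and Oas1a, which passed the filter on low counts through HFD libraries alone and did not pass this test. Without HFD control 1 that median was -0.13, 9 of 25 estimates were above 0, and Ifi44 and Irgm1 passed, where 29.9% of all genes did. Without SD control 1 only Ifi44 passed, where 24.2% of all genes did, and without HFD control 4 the count was 5, where 29.1% did. The Irgm1 call was also lost without SD control 2 (edgeR adjusted p = 0.134), and that of Dhx58 without HFD control 1 or 3, without any single SD control and in DESeq2 (0.0604). The diet comparisons in knockouts and in controls share libraries with the knockout comparisons above, so they are not independent of them.

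Antigen presentation genes changed with diet in both genotypes, in knockouts 6 higher and 1 lower of 10, and in controls 5 higher and 1 lower. Of all genes, 14.9% passed as higher and 11.7% as lower in knockouts, and 16.5% as higher and 13.6% as lower in controls. Psmb9, a catalytic immunoproteasome subunit, had 27.9 and 28.6 CPM in HFD knockouts against 7.67, 12.4 and 6.27 CPM in SD knockouts (1.70 ± 0.27, edgeR adjusted p = 0.000284). In controls it had 26.0, 22.5, 23.7 and 29.5 CPM on HFD against 7.81, 15.7 and 7.02 CPM on SD (1.35 ± 0.24, 0.000603). Tap1, which forms the peptide transporter with TAP2, had 16.7 and 17.7 CPM in HFD knockouts against 6.33, 9.21 and 8.71 CPM in SD knockouts (1.10 ± 0.24, 0.0032). In controls it had 17.6, 16.5, 11.8 and 12.2 CPM on HFD against 5.47, 8.44 and 6.71 CPM on SD (1.09 ± 0.22, 0.00166). Psmb9 and Tap1, whose promoter windows overlap, were higher in every HFD library than in every SD library. In knockouts the diet groups did not overlap for 52.7% of all genes, 28.2% as higher.

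H2-T23 had 115 and 84.5 CPM in HFD knockouts against 39.7, 31.2 and 36.2 CPM in SD knockouts (1.48 ± 0.17, edgeR adjusted p = 1.13e-05), and in controls its log2 fold change was 0.69 ± 0.15 (0.00248). H2-K1 had 1151 and 1059.9 CPM in HFD knockouts against 568, 652 and 584 CPM in SD knockouts (0.88 ± 0.15, 0.000393), and in controls 0.38 ± 0.13 (0.0296). Psmb8 rose by 0.90 ± 0.23 in knockouts (0.00839) and by 0.64 ± 0.21 in controls (0.0290). H2-D1 rose in knockouts alone at this threshold (0.45 ± 0.15, 0.0315), with an estimate of -0.03 in controls, and the difference between these diet effects did not pass (0.48 ± 0.19, 0.578). The H2-D1 call in knockouts was lost with plain library size, with the replicate block and without SD knockout 1, SD knockout 3, HFD knockout 1 or HFD knockout 2.

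B2m fell on HFD in both genotypes. It had 4128 and 4104 CPM in HFD knockouts against 5993, 5476 and 5881 CPM in SD knockouts, 1.41-fold lower (-0.49 ± 0.12, edgeR adjusted p = 0.008). In controls it had 4268, 3928, 3668 and 3711 CPM on HFD against 7006, 7944 and 7353 CPM on SD, 1.91-fold lower (-0.93 ± 0.10, 4.21e-06). The highest HFD library lay below the lowest SD library. Because B2m holds most of the counts of the 10 genes, their summed level followed it, at 5828 and 5676 CPM in HFD knockouts, 5808, 5306, 5010 and 5100 CPM in HFD controls, 6870, 6489 and 6782 CPM in SD knockouts and 7924, 9281 and 8505 CPM in SD controls. Without HFD knockout 1 only 1 HFD knockout was left, and B2m was no longer past the threshold in knockouts. The diet estimate in knockouts was then above 0 for 9 of the 10 genes, with a median log2 fold change of 0.62. In controls the Psmb8 call was lost without HFD control 1, SD control 1 or SD control 2, and that of H2-K1 without HFD control 1, HFD control 2, SD control 1 or SD control 3.

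**Figure D5:**
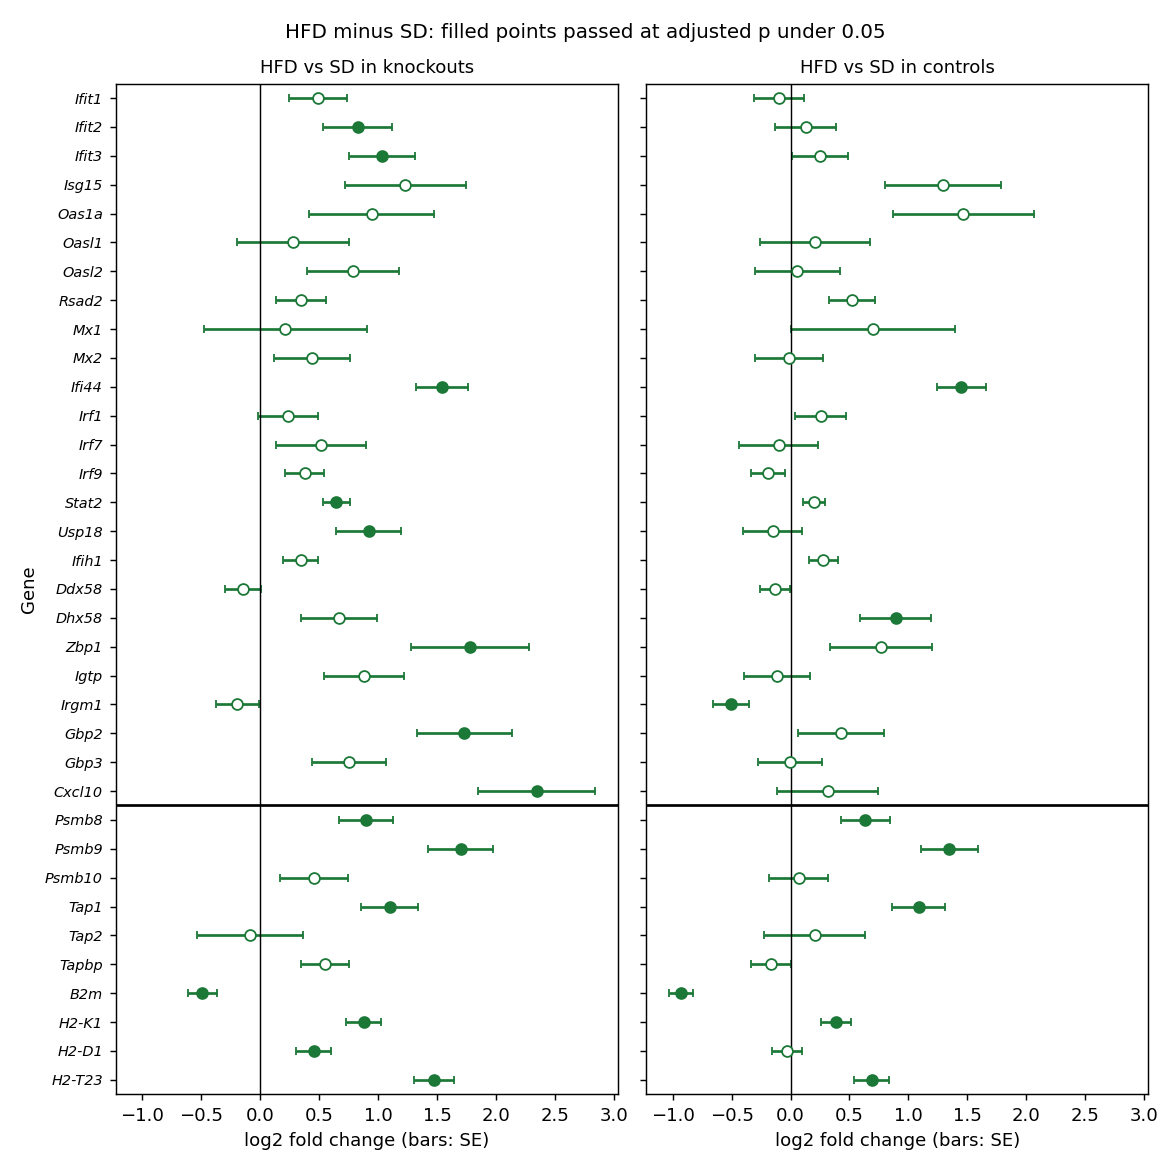
Log2 fold change of HFD over SD for each of the 35 genes, in knockouts at left and in controls at right; bars are the SE and filled points passed at an adjusted p under 0.05. H2-K1, H2-T23, Psmb8, Psmb9 and Tap1 are filled above 0 and B2m is filled below 0 in both panels.

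The related lists are read against the same shares of all genes, 14.9% higher and 11.7% lower in knockouts and 16.5% and 13.6% in controls. Of 22 receptor and signalling genes, 2 rose and 2 fell on HFD in knockouts, with a median log2 fold change of 0.04, and 4 rose and 2 fell in controls, with a median of -0.27. Of 18 other class I pathway genes, 10 rose and 1 fell on HFD in knockouts, and 7 rose and 2 fell in controls. The proteasome activator subunit gene Psme2 had 30.2 and 32.8 CPM in HFD knockouts against 3.67, 6.00 and 4.53 CPM in SD knockouts (2.75, edgeR adjusted p = 2.92e-08). Psmb5, which PSMB8 replaces in the immunoproteasome, also rose, by 2.09 on the log2 scale in knockouts (1.18e-07) and by 2.50 in controls (3.8e-09). Of 43 other interferon-stimulated genes, 9 rose and none fell in knockouts, and 5 rose and 1 fell in controls. Oas3 had the smallest p of these, at 8.71, 6.46, 7.10 and 5.98 CPM in HFD controls against 1.56, 0.402 and 1.53 CPM in SD controls (2.55, edgeR adjusted p = 0.000143). The SD control values all lay under the 1.84 CPM cutoff of the filter on low counts. In those libraries 1 count is 0.391, 0.402 and 0.305 CPM, so the Oas3 estimate rests on few reads. Among class II genes, 4 of 8 rose in knockouts (Cd74, H2-Ab1, Ciita and H2-Eb1) and 1 of 8, Cd74, in controls. Cd74, the invariant chain, had 119 and 60.6 CPM in HFD knockouts against 18.0, 37.2 and 12.5 CPM in SD knockouts (2.01, 0.00302). Each of these class II calls was lost without HFD knockout 1 in knockouts, and that of Cd74 in controls without SD control 1 or 3. Macrophage markers, summed over the list, were 364 and 334 CPM in HFD knockouts against 343, 278 and 362 CPM in SD knockouts, and T and NK cell markers 13.9 and 15.3 against 8.999, 11.6 and 8.36 CPM. Of the 11 macrophage markers, 1 passed as higher on HFD in knockouts (edgeR adjusted p = 0.0137) and 1 in controls (0.0219). Among the T and NK cell markers, only Cd3e and Cd4 passed the filter on low counts. Cd3e was higher on HFD in knockouts (log2 fold change 2.24, edgeR adjusted p = 0.0210), with means of 2.33 CPM in HFD knockouts and 0.489 CPM in SD knockouts. Neither passed in controls. The 5 B cell markers found in the files summed to 6.67 and 7.25 CPM in HFD knockouts against 0.333, 4.80 and 0.697 CPM in SD knockouts, and to 7.80, 3.35, 5.49 and 7.28 CPM in HFD controls against 5.47, 7.64 and 5.80 CPM in SD controls. Of these Cd79a was at 0 in all SD libraries, and the sums overlapped between diets in controls. Cd22, the only one that passed the filter, was higher on HFD in knockouts (log2 fold change 2.66, edgeR adjusted p = 0.0118). Its means were 3.94 CPM in HFD knockouts and 0.650 CPM in SD knockouts, and it did not pass in controls. The SD knockout means of Cd3e and Cd22 lay under the 1.84 CPM cutoff of the filter. The part of these cell types in the diet differences was not tested.

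The genes for interferons themselves were almost unread. Of 10 interferon ligand genes listed, Ifnk, a type I interferon of skin, alone passed the filter on low counts, with 101 counts over the 12 libraries. Ifnb1 and Ifng each had 1 count in all libraries together, and the other 7 were at 0. Ifnk was lower on HFD in knockouts, at 1.11 and 1.34 CPM in HFD knockouts against 3.00, 3.20 and 2.79 CPM in SD knockouts (log2 fold change -1.26, edgeR adjusted p = 0.0356). That call was lost in DESeq2 (0.0859), with no filter on low counts (0.114), with the replicate block (0.0641) and without any single library of the 2 groups (0.0733 to 0.164). For the other 9 ligands these data give no level, and a difference in them was not detectable at this depth.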

How the data were processed

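RNA was extracted from flash-frozen livers with Trizol, and the Nugen Ovation RNA-Seq System V2 was used for libraries, per the labels' protocols. The authors deposited raw counts per gene symbol for each library, with no rows for unassigned reads. The mouse build mm9 and the tools TopHat2 2.1.0, HTSeq and DESeq2 1.14.1 are named in the submitters' processing notes; a strand setting is not given in the sources used here. Here counts were tested with edgeR 4.0.16 (R 4.3.3, limma 3.58.1): TMM normalization, filterByExpr with a minimum count of 10 (12015 of 24062 genes), 1 quasi-likelihood fit of 4 group means over all 12 libraries, and Benjamini-Hochberg adjustment over all genes tested at 0.05. CPM were computed on normalized library sizes. Gene lengths came from GENCODE and promoters from RefSeq, both on GRCm38; no mm9 genome was used here. The alternatives were RLE, plain library size, no filter, only the groups compared, thinning, a replicate block, DESeq2 1.42.0 and leaving out each library.

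The members and the other gene lists were chosen with earlier results of these data known. All 35 members were accounted for. Fold change and test were given for members past the threshold or, where fewer than 3 of a list passed, for the 3 with the smallest p, up to 12 in each comparison. From other pathway lists up to 4 genes past the threshold were named. A further 4 listed marker symbols were not found among the files' symbols. The highest correlation between any 2 libraries was 0.983, so none was taken as deposited more than once.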

Additional observations from a re-analysis of the deposited data

Results flagged for a closer look

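Of the 35 genes, 2 had a value in HFD control 1 that lay far from the other HFD controls. Cxcl10 stood at 14.9 CPM in that library, against 6.46, 6.30 and 6.24 CPM in the other HFD controls. Psmb8 stood at 23.96 CPM, against 16.3, 17.3 and 16.0 CPM. The cutoff used marks about 1 in 20 genes by chance if values are normally distributed. The share of all genes that it marks in these libraries was not computed, so 2 of 35 cannot be set against it. Both values lie in the library that was highest for 10 of 11 macrophage markers, and the part of those markers was not tested.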

How the results depend on the processing

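The numbers in the labels were not taken to pair libraries: deviations of same-numbered libraries correlated at 0.05, 0.05 and -0.02 on SD and at 0.13 and 0.01 on HFD. The replicate block moved the interferon count to 0 of 25 in HFD knockouts against HFD controls (from 1) and to 5 between diets in controls (from 3), and it moved no other count of members by over 1.5 times. In HFD knockouts against HFD controls the interferon count was also 0 with plain library size and with only the groups compared, 4 with no filter on low counts, and 0 to 4 with single libraries left out. The antigen presentation count there was 1 (H2-T23) with no filter and with DESeq2, and 0 to 1 with single libraries left out. In SD knockouts against SD controls DESeq2 gave 1 antigen presentation gene, B2m, as lower. With single libraries left out, interferon counts ran from 0 to 2 averaged over diets, from 1 to 5 between diets in controls and from 5 to 7 between diets in knockouts, and antigen presentation counts between diets in knockouts from 4 to 8. The share of all genes that passed also moved between these fits. The causes were not tested. Of 1218 pairs of a named result and an alternative, 1094 kept direction and side of the threshold, 114 were no longer past it (89 with a library left out), 10 came to pass and none reversed; 36 of 64 calls held under every alternative run. Depth in SD libraries limits the low genes: Gbp2, Cxcl10, Isg15 and Oas1a rest on 5 to 58 counts over an SD group. Other genes are also limited. Mx1 had 15 counts over the SD knockouts and 9 over the SD controls, and Zbp1 had 18 and 26. Dhx58 had 32 and 26, and Tap2 had 36 and 24.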
